A study of Homo sapiens with 12 samples.

Results

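The genes described here build and restrain the proteolytic machinery that cells use on the extracellular matrix: the matrix metalloproteases MMP1, MMP2, MMP3 and MMP14, the tissue inhibitors of metalloproteases TIMP1, TIMP2 and TIMP3, the urokinase plasminogen activator PLAU and its cell surface receptor PLAUR. These 9 genes were chosen by name out of 19775 genes, and each was read from the probe set, among those annotated to it alone, that had the highest mean over 12 Affymetrix HG-U133 Plus 2.0 arrays. A probe set is a group of short probes for a transcript, and its value is the GCRMA expression value on a log2 scale, so that a difference of 1 is a doubling. The arrays carried RNA from Hs578T and BT-20, both established human breast cancer cell lines, with 6 arrays per line.

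Every culture was transfected with the liposomal reagent DOTAP and 200 nM of an oligonucleotide for 24 h. The oligonucleotides were a double-stranded DNA of 30 bases from exon 1 of a human gene, with 4 CpG in its sequence whose cytosines were methylated in both strands (M) or not (U), and ODN2006, a single-stranded CpG oligodeoxynucleotide, with a control of the same length that has GpC in place of CpG (ODN2006 CTL). M and U had 2 arrays per line, called set 1 and set 2 and described as biological replicates in the labels. ODN2006 and ODN2006 CTL had 1 array per line. Array names carry 1 of 2 codes: code 1 stands on the 4 arrays of set 1, code 2 on the 8 arrays of set 2 and of the ODNs, and whether the ODN cultures were grown with set 2 is not given in the sources used here. No array of untreated cells was analysed here, so the levels below are those of transfected cells of a single line each, and a bulk array cannot tell fewer expressing cells from less RNA per cell.

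MMPs are secreted or membrane-bound zinc enzymes that are made as inactive proforms and cleave collagens and other matrix proteins. TIMP proteins block the active enzymes, and TIMP2 has a further role, because a complex of TIMP2 with MMP14 on the cell surface presents pro-MMP2 for activation. PLAU, bound to PLAUR, turns plasminogen into plasmin, which degrades fibrin and activates several MMP proforms. In breast tumours much of this machinery is known to be made by stromal cells or by tumour cells of a mesenchymal type.

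The single-stranded oligonucleotides are shown because they set the only labelled difference between the ODN2006 arrays and their controls. They have the same length and differ in the order of C and G at the 4 positions in capitals, CG in ODN2006 and GC in the control. ODN2006 is known as a ligand of the receptor TLR9.

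ODN2006: tCGtCGttttgtCGttttgtCGtt

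ODN2006 CTL: tGCtGCttttgtGCttttgtGCtt

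Promoter sequences were available in the RefSeq table of GRCh38.p14 for 5 of the 9 genes, with 2 start sites for PLAU. The 120 bases before each start are shown, 5′ to 3′ on the strand of the gene, because the levels of these genes differed in kind. TIMP3, PLAU and MMP14 were near background in BT-20. In Hs578T TIMP3 and PLAU were high and MMP14 was moderate. TIMP1 and PLAUR were measured well in both lines. Capitals mark the GC box (GGGCGG or its reverse complement CCGCCC), the letters bound by the SP1 family.

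TIMP3, chr22:32801585-32801704, plus strand: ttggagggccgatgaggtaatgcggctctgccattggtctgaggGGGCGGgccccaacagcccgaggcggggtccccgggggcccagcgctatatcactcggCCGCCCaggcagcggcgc

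PLAU, first start, chr10:73910490-73910609, plus strand: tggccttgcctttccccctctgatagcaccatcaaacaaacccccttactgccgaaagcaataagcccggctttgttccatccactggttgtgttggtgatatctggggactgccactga

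PLAU, second start, chr10:73911012-73911131, plus strand: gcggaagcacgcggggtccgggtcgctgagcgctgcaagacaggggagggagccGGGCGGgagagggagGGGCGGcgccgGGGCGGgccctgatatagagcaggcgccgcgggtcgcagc

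MMP14, chr14:22836465-22836584, plus strand: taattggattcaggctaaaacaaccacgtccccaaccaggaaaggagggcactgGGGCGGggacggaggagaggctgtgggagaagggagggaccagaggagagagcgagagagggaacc

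TIMP1, chrX:47582316-47582435, plus strand: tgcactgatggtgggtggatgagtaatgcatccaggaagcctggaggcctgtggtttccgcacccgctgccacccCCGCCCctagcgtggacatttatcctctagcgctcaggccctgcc

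PLAUR, chr19:43670170-43670289, minus strand: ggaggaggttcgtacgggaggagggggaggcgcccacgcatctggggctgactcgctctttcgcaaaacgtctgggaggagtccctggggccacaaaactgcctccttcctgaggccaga

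Over the full 250 bases before the start, the TIMP3 promoter held 26 CpG and 5 GC boxes, and 19.6% of 35116 promoter windows of that length held as many CpG. The second PLAU start had 24 CpG and 3 GC boxes, whereas the first had 4 CpG and no GC box. MMP14 had 7 CpG and 1 GC box, TIMP1 12 CpG and 2 GC boxes, and PLAUR 13 CpG and no GC box. The median over all windows was 11 CpG, and 42.6% of them held a GC box. No link between CpG content and the level of a gene in either line was tested. The AP-1 motif TGANTCA, which reads the same on both strands, was found once (6.57% of all windows hold it). Its first base was at −186 from the PLAUR start and so outside the stretch printed above. TATAAA, searched on the strand of the gene only, was held by 6.80% of the windows. The NF-kB consensus, searched on both strands like the GC box, was held by 0.527%. Neither was in any of the 6. A match is a description of letters and was not linked to any binding in these data.

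Hs578T carried mesenchymal and BT-20 epithelial markers. All 9 epithelial markers examined were at a log2 value of 5 or above in every BT-20 array and 2 of 9 (KRT8, KRT18) in every Hs578T array, and all 9 mesenchymal markers were so in Hs578T against 3 of 9 (VIM, FN1, COL1A1) in BT-20. Of markers of other cell types, the 3 immune markers in the probe table were under 5 in all arrays, whereas the endothelial cadherin CDH5 lay between 7.29 and 9.48 in BT-20 and PECAM1 between 4.08 and 6.69 in Hs578T. VWF, the third endothelial marker, stayed under 5 throughout. Array medians ran from 3.01 to 3.09, 33.9% to 35.0% of probe sets were at 5 or above, and arrays correlated at 0.985 to 0.998 within a line and 0.887 to 0.906 between lines.

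The first question was how the lines differ. Hs578T held high levels of the gelatinase MMP2, the plasminogen activator PLAU and the matrix-bound inhibitor TIMP3, and a moderate level of the membrane protease MMP14, all of which were under 5 in every BT-20 array. TIMP1, TIMP2 and PLAUR were present in both lines and higher in Hs578T. MMP1 and MMP3 were under 5 in all arrays of both lines. In limma, with Benjamini-Hochberg adjustment over 10410 genes, 7 of the 9 genes could be tested on the M and U arrays and 7 differed at an adjusted p of 0.05, all of them higher in Hs578T. This is to be read against a background in which 74.6% of all genes tested differed between the lines, 34.4% higher and 40.2% lower in Hs578T. The median log2 difference over all genes tested was −0.09. A gene was tested if it reached 5 in at least 2 arrays, and MMP2, MMP14, TIMP3 and PLAU passed that filter only through Hs578T, so that they had to differ and their calls add nothing to their levels.

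MMP2, on chromosome 16, encodes gelatinase A, which cleaves type IV collagen and denatured collagens. In Hs578T it was at 11.34 and 11.03 with M (set 1, set 2), 11.35 and 11.13 with U, 11.43 with ODN2006 and 11.37 with the control. In BT-20 the same probe set was at 2.49 and 2.37 with M, 2.48 and 2.39 with U, 2.39 with ODN2006 and 2.43 with the control. The Hs578T arrays lay within 0.40 of each other and far above all BT-20 arrays. The difference was 8.78 (SE 0.11, limma adjusted p = 8.29e-09) on the log2 scale. Values as low as those of BT-20 have little meaning of their own, and with all values under 5 raised to 5 the difference was 6.21, which is a lower bound. Another pair of probe sets for MMP2 was under 5 in both lines.

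MMP14 (chromosome 14), the membrane type 1 protease that activates pro-MMP2, was weaker and more variable. In Hs578T it was at 6.86 and 5.29 with M, 6.74 and 6.14 with U, 6.85 with ODN2006 and 6.12 with the control, and in BT-20 at 1.89 to 2.24. The lowest Hs578T value was thus close to the limit of 5 and belonged to the set 2 array of M. The lines differed by 4.19 (SE 0.34, limma adjusted p = 3.70e-05), or by at least 1.26 with low values raised to 5. A second probe set gave 2.13 (SE 0.27, limma adjusted p = 3.28e-04). It lay between 4.31 and 5.75 in Hs578T and between 2.81 and 3.20 in BT-20. As it reached 5 only on the 2 set 1 arrays of Hs578T, it passed the filter through that line alone. Its call adds nothing to these levels. Another pair did not pass the filter, so the size of the MMP14 difference depends on the probe set.

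Collagenase 1 (MMP1) and stromelysin 1 (MMP3) are neighbours on chromosome 11. MMP1 lay between 2.46 and 2.51 in Hs578T and between 2.47 and 3.15 in BT-20, and MMP3 between 2.22 and 2.26 in Hs578T and between 2.23 and 2.29 in BT-20. Neither could be tested, and neither was distinguishable from background at any treatment. The surrounding genes looked the same. Of the 9 MMP genes that follow each other in the RefSeq annotation there (MMP7, MMP20, MMP27, MMP8, MMP10, MMP1, MMP3, MMP12 and MMP13), all 9 were under 5 in all 12 arrays, with values from 2.02 to 3.29. This stretch was singled out after its values were seen.

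Among the inhibitors, TIMP3 stood apart. TIMP3 binds to the matrix and also inhibits sheddases of the ADAM family, and its gene (chromosome 22) lies within SYN3. Its Hs578T values were 13.12 and 12.92 with M, 13.14 and 12.93 with U, 13.09 with ODN2006 and 13.08 with the control. Its BT-20 values were 3.32 and 3.26 with M, 3.31 and 3.15 with U, 3.22 with ODN2006 and 2.75 with the control. Hs578T arrays spanned 0.21 and shared no range with BT-20. The difference was 9.77 (SE 0.10, limma adjusted p = 5.99e-09), or at least 8.03 with low values raised to 5, and all 4 TIMP3 probe sets gave differences from 8.93 to 10.28.

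TIMP1 (X chromosome, within SYN1), an inhibitor of most soluble MMPs that is weak against MMP14, was abundant in both lines. Hs578T had 11.71 and 11.99 with M, 11.73 and 11.90 with U, 12.32 with ODN2006 and 12.04 with the control. BT-20 had 9.88 and 10.65 with M, 9.95 and 10.73 with U, 10.67 with ODN2006 and 10.51 with the control. The ranges did not overlap. The mean of the M and U arrays was 11.83 ± 0.14 in Hs578T and 10.30 ± 0.45 in BT-20 (SD, n = 4 each), a 2.89-fold difference (log2 1.53, SE 0.24, limma adjusted p = 9.53e-04).

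TIMP2 (chromosome 17) behaved in the same way on the probe set used. In Hs578T it was at 12.13 and 11.95 with M, 12.28 and 12.17 with U, 12.33 with ODN2006 and 12.30 with the control. In BT-20 it was at 11.13 and 9.71 with M, 10.80 and 9.98 with U, 9.66 with ODN2006 and 9.88 with the control. All Hs578T arrays lay above all BT-20 arrays, with the smallest gap to the set 1 arrays of BT-20. The difference was 3.31-fold (log2 1.73, SE 0.33, limma adjusted p = 0.00272). A second probe set gave 1.73 as well, but the third and dimmest gave 0.15 (SE 0.32, limma adjusted p = 0.695), and on it the set 1 array of BT-20 with M (9.09) was higher than every Hs578T array.

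PLAU (chromosome 10), the activator itself, was in Hs578T at 11.21 and 10.28 with M, 11.36 and 11.00 with U, 11.80 with ODN2006 and 10.87 with the control, and in BT-20 at 2.08 to 2.34. The difference was 8.77 (SE 0.22, limma adjusted p = 1.17e-07), at least 5.96 with low values raised to 5, and 8.21 on its other probe set. As for MMP14, the set 2 array of M was the lowest of the Hs578T arrays.

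PLAUR (chromosome 19), the receptor that holds PLAU at the membrane, differed least. Hs578T had 10.08 and 9.83 with M, 9.58 and 9.34 with U, 10.38 with ODN2006 and 8.79 with the control. BT-20 had 9.69 and 8.54 with M, 8.92 and 8.63 with U, 8.40 with ODN2006 and 8.02 with the control. The lines overlapped, since the set 1 array of M in BT-20 was above 3 of the 6 Hs578T arrays. On the M and U arrays PLAUR was 1.69-fold higher in Hs578T (log2 0.76, SE 0.25, limma adjusted p = 0.0289), and its other probe sets gave 0.81 and 0.76. This call was the least firm of the 7: it was lost when any 1 of 5 of the 8 arrays was left out (adjusted p of 0.0524 to 0.0866), with no filter (0.0954), and when arrays were centred on housekeeping genes (log2 0.24, adjusted p = 0.329).

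**Figure D1:**
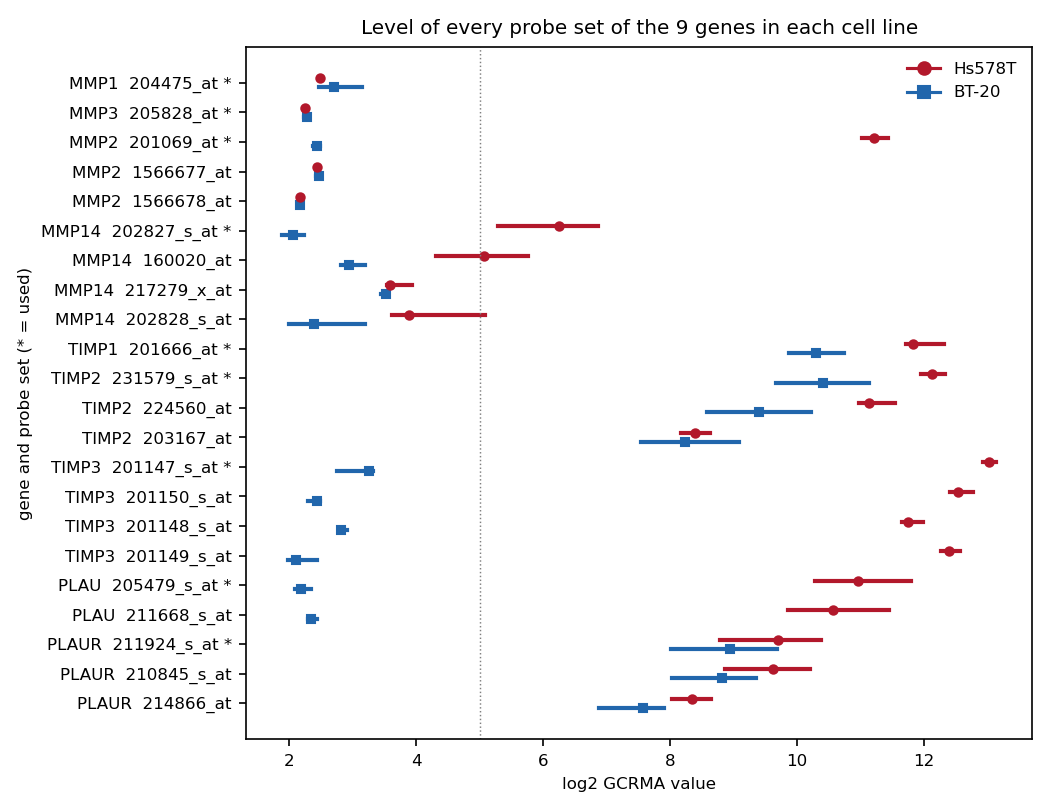
Level of all 22 probe sets of the 9 genes (rows) in Hs578T (circles) and BT-20 (squares) on the log2 GCRMA scale (horizontal axis). Points are means of the 4 M and U arrays of a line, bars run from the lowest to the highest of its 6 arrays, the asterisk marks the probe set used, and the dotted line is at 5. The 4 TIMP3 and both PLAU probe sets show the same wide gap, while the last listed probe set of TIMP2 overlaps between the lines.

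Other genes of the system were counted from lists. Of 19 further MMPs, 18 were in the probe table and 3 passed the filter: MMP16, another membrane-type protease, was higher in Hs578T (log2 5.46, SE 0.16, limma adjusted p = 2.46e-07), MMP15 was lower (log2 −2.61, SE 0.46, limma adjusted p = 0.00179), and MMP28 did not pass the test (log2 0.13, SE 0.14, adjusted p = 0.414). MMP16 (2.44 to 2.52 in BT-20) and MMP15 (2.98 to 3.19 in Hs578T) passed the filter only through the line in which they were higher, so their tests carry no weight of their own. With values under 5 raised to 5, the differences were 2.95 for MMP16 and −0.82 for MMP15, and MMP15 then no longer passed (limma adjusted p = 0.0837). The gelatinase MMP9 was not tested, as it reached 5 in at most 1 of the M and U arrays. Its highest value was 5.47, in BT-20. MMP19, not tested between the lines either, lay between 3.73 and 5.72 in Hs578T and was at most 2.85 in BT-20.

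Of 8 further inhibitors, 6 were in the table and 3 were tested, with 1 higher and 2 lower in Hs578T. SERPINE2, a serpin that inhibits urokinase and thrombin, was higher (log2 2.36, SE 0.52, limma adjusted p = 0.00510), whereas TFPI2, a Kunitz-type inhibitor of plasmin, was lower (log2 −3.44, SE 0.34, adjusted p = 1.06e-04). RECK, a membrane-anchored inhibitor of several MMPs, was slightly lower (log2 −0.37, SE 0.09, adjusted p = 0.00833). Calls in both directions were also common over all genes tested, with 34.4% higher and 40.2% lower in Hs578T.

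Of 6 other plasminogen system genes, 5 were tested, with 3 higher and 2 lower in Hs578T (34.4% and 40.2% of all genes tested). PLAT, the tissue-type activator, was higher (log2 7.29, SE 0.20, limma adjusted p = 2.14e-07) and, like PLAU, was near background in BT-20 (2.39 to 2.51), so that it too had to differ; with values under 5 raised to 5 the difference was 4.72, a lower bound. The plasminogen receptor PLGRKT was higher (0.89, SE 0.10, adjusted p = 2.43e-04) and S100A10, which binds plasminogen at the membrane together with ANXA2, was lower (−0.79, SE 0.10, adjusted p = 4.19e-04). LRP1 was higher (1.17, SE 0.17, limma adjusted p = 7.57e-04). PLG, which encodes plasminogen itself, was at most 2.75 in all arrays. Of 4 activators and inducers of MMPs, 2 were tested. FURIN, a convertase that cleaves pro-MMP14, was lower (−0.85, SE 0.12, adjusted p = 4.90e-04) and BSG, an inducer of MMPs, was higher (0.71, SE 0.09, adjusted p = 4.27e-04). The medians of the tested genes were 0.13 for the other MMPs (3 genes) and −0.37 for the inhibitors (3 genes). They were 0.89 for the plasminogen genes (5 genes) and −0.07 for the activators (2 genes), beside −0.09 for all genes tested. With so few genes, among them MMP15, MMP16 and PLAT, which had to differ, these medians say little about a list.

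The study's stated question for the arrays was the difference between M and U. None of the 7 genes passed the threshold in either line, over both lines, or in the test of whether the lines differed, and neither did any other gene (0% of 10410 genes in each of the 4 comparisons). At an unadjusted p under 0.05, limma counted 680, 174, 543 and 258 genes in the same order, with 0 of the 7 genes among them in each. The trended robust form of limma also called 0 genes. No gene of the 4 further lists was called in any comparison of treatments.

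For PLAUR the M minus U difference was 0.50 in set 1 and 0.49 in set 2 of Hs578T, and 0.76 in set 1 and −0.09 in set 2 of BT-20. On the probe set used, M was therefore higher in 3 of 4 pairs of arrays, and the second probe set had the same directions. On the dimmest PLAUR probe set M was lower in set 1 of Hs578T (8.32 against 8.51) and in set 2 of BT-20 (7.23 against 7.38). There it was higher in the other pairs. For the probe set used, the difference over both lines was 0.42 (SE 0.25, limma adjusted p = 0.951). With set within line as a block the SE was 0.15 (limma adjusted p = 0.394), and PLAUR was not called in either fit.

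PLAU and MMP14 in Hs578T had larger differences in a single pair. For PLAU, M minus U was −0.15 in set 1 and −0.72 in set 2 (mean −0.44, SE 0.30, limma adjusted p = 0.879), and for MMP14 it was 0.12 and −0.85 (mean −0.36, SE 0.48, adjusted p = 0.972). Both rest on the set 2 array of M. For MMP2, TIMP1, TIMP2 and TIMP3, no pair of Hs578T arrays differed by more than 0.22. In BT-20, TIMP2 moved by 0.32 in set 1 and by −0.27 in set 2, in opposite directions.

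ODN2006 was compared with its control on 1 array each per line, so that the spread was taken from the replicated M and U arrays and the lone arrays were assumed to vary like them. Over both lines 1 of 10543 genes passed (0.00948%), and it was not among the 9. PLAUR had the largest difference among them. Its value on the ODN2006 array was 10.38 in Hs578T and 8.40 in BT-20, against 8.79 and 8.02 on the control arrays. The difference over both lines was 0.98 (SE 0.36, unadjusted p = 0.0295, limma adjusted p = 0.975). At an unadjusted p under 0.05, limma counted 490 of the 10543 genes in this comparison. The other PLAUR probe sets gave 0.66 and 0.24. PLAU over both lines differed by 0.51 (SE 0.31, adjusted p = 0.999) and MMP14 by 0.52 (SE 0.48, adjusted p = 0.999).

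Taken line by line, a contrast chosen after the data were seen, 0 of 10543 genes passed in Hs578T (0%; 581 at an unadjusted p under 0.05) and 2 in BT-20 (0.019%), none of them among the 9. In Hs578T PLAUR differed by 1.59 (SE 0.50, unadjusted p = 0.0173, limma adjusted p = 0.704) and PLAU by 0.93 (SE 0.43, adjusted p = 0.940). In BT-20 PLAUR differed by 0.38 (SE 0.50, adjusted p = 1.00), and PLAU was near background on both arrays. The difference of the PLAUR effect between lines was 1.21 (SE 0.71, limma adjusted p = 1.00), and 0% of genes passed that test (309 at an unadjusted p under 0.05). With 1 array per condition these values are differences between single arrays.

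**Figure D2:**
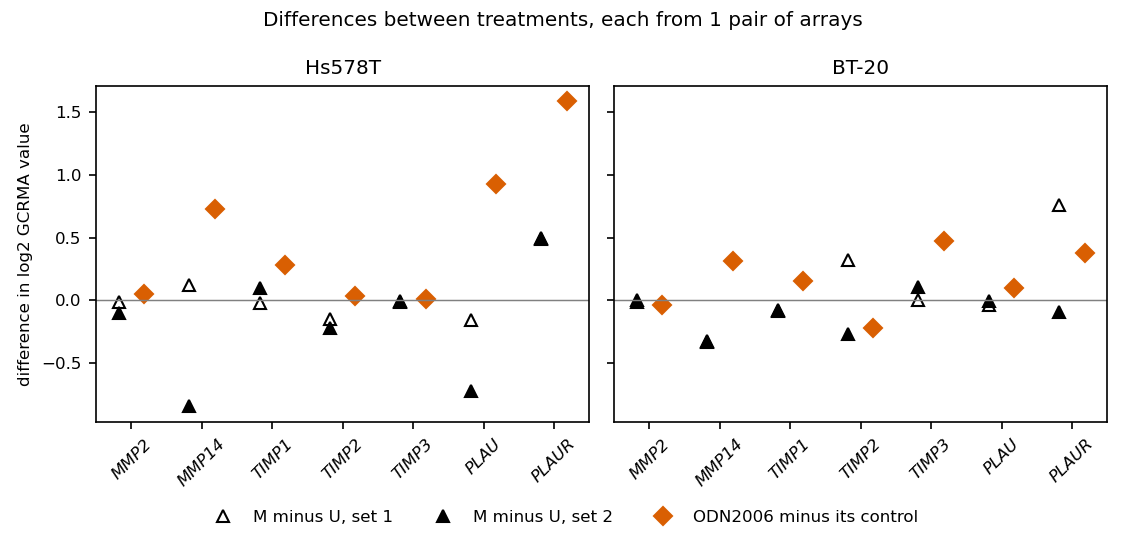
Difference in log2 GCRMA value (vertical axis) between paired arrays for the 7 genes above 5 in at least 1 line, in Hs578T (left) and BT-20 (right). Triangles are M minus U in set 1 (open) and set 2 (filled), diamonds are ODN2006 minus its control; for PLAUR in Hs578T the open triangle (0.50) lies behind the filled one (0.49). The largest value is that of PLAUR with ODN2006 in Hs578T (1.59), and MMP2, MMP14, TIMP3 and PLAU are near background in BT-20.

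The single-stranded ODNs were also set against the double-stranded M and U oligonucleotides on the 8 arrays of code 2, with ODN2006 joined to its control and M to U. These oligonucleotides differ in sequence and strandedness, and the ODN arrays may stem from other cultures, so these differences cannot be told apart from each other. In Hs578T 9.03% of 10375 genes passed (3.87% higher and 5.16% lower with the ODNs), and none of the 7 genes did. At an unadjusted p under 0.05, limma counted 3051 of the 10375 genes, with 1 of the 7 among them, MMP2 (0.0145). MMP2 passed in 1 of its 14 alternatives, with no filter applied (limma adjusted p = 0.0328). Its log2 difference ranged from 0.10 to 0.44 over these alternatives. The share of genes called there was unsteady: the 937 genes became 135 without the Hs578T ODN2006 array and 1528 without the Hs578T set 2 array of U, and centring on housekeeping genes turned 402 higher and 535 lower into 574 and 254. The differences were 0.32 for MMP2 (SE 0.10, limma adjusted p = 0.0886), 0.77 for MMP14 (SE 0.34, adjusted p = 0.189) and 0.70 for PLAU (SE 0.33, adjusted p = 0.219). On the probe sets used, the 3 TIMP genes differed by 0.16 to 0.25, and PLAUR by −0.004 (SE 0.47, adjusted p = 0.997). That PLAUR value joins ODN2006 at 10.38 with its control at 8.79. The other TIMP2 probe sets gave 0.47 (SE 0.15, limma adjusted p = 0.103) and 0.18 (SE 0.11, adjusted p = 0.337). The other PLAU probe set gave 0.93 (SE 0.29, limma adjusted p = 0.0904). MMP2 was at 11.43 and 11.37 on the ODN arrays and 11.03 and 11.13 on the M and U arrays of set 2. The set 1 arrays (11.34 and 11.35) lay next to the ODN arrays.

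In BT-20 no gene passed (0% of 10375, 534 at an unadjusted p under 0.05 in limma, with 0 of the 7 among them), and the largest difference among the genes was −0.38 for PLAUR (SE 0.47, adjusted p = 1.00). The difference between the lines, again added after the data were seen, passed for 0.27% of genes and for none of the 7. MMP2 had 0.29 there (SE 0.14, limma adjusted p = 0.363) and MMP14 0.76 (SE 0.48, adjusted p = 0.477).

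Several genes shifted between set 1 and set 2. In BT-20 the mean of M and U fell by 1.12 from set 1 to set 2 for TIMP2, rose by 0.78 for TIMP1 and fell by 0.72 for PLAUR. Among 10410 genes, 1.40%, 1.69% and 4.13% moved as far to the same side. The 2 inhibitors thus moved in opposite directions between the same arrays, and the ODN arrays, which share code 2, had values like set 2 for both. In Hs578T the mean fell by 1.09 for MMP14 and by 0.65 for PLAU (1.44% and 4.77% of genes as far), but there the ODN2006 array (6.85 for MMP14, 11.80 for PLAU) was not in the range of set 2, whereas the control array (6.12 and 10.87) was. These shifts were not tested, and their cause was not tested.

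The genes whose pattern was most like that of a member were taken by Pearson's r over the 12 arrays after subtraction of each line's mean, for members spanning more than 1 log2 unit. For TIMP2 they were the type IV collagen chains COL4A1 and COL4A2 and the corepressor TLE4 (r = 0.98 each). COL4A1 in BT-20 was at 8.39 and 8.01 in set 1 and between 5.96 and 6.26 on the other 4 arrays, and COL4A2 at 9.41 and 9.29 against 7.57 to 7.89. For MMP14 they were TENM2 (0.93), RBMS3 (0.92) and FNDC5 (0.92), for PLAU MAP3K7CL (0.96), PRSS12 (0.93) and ARHGAP22 (0.92), and for PLAUR UTP25 (0.93), ZIC2 (0.92) and POLH (0.92). These are descriptions over 12 arrays that share sets and treatments, picked as the highest among 10543 genes, and no p is given.

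**Figure D3:**
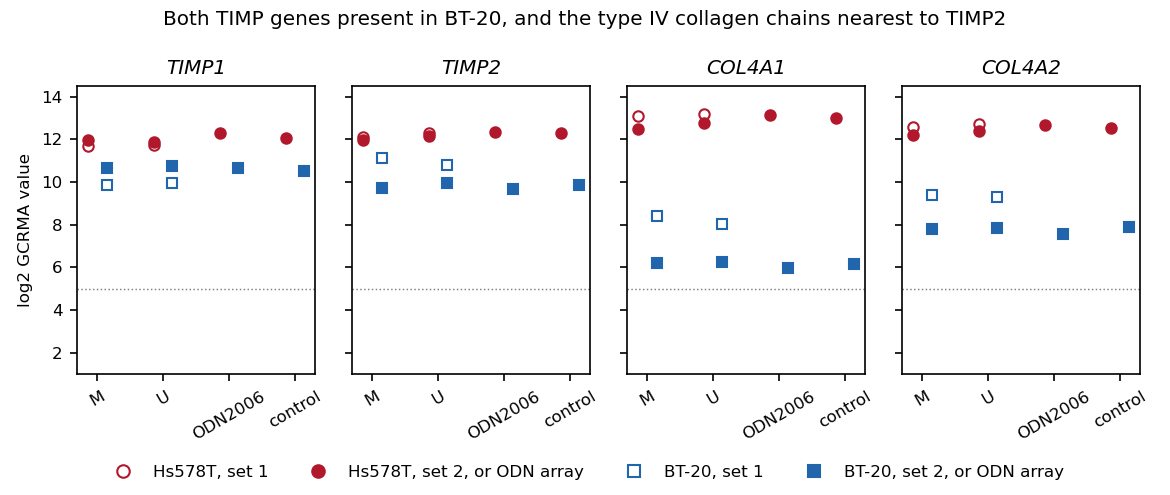
log2 GCRMA value (vertical axis) of TIMP1, TIMP2, COL4A1 and COL4A2 on the 12 arrays by oligonucleotide (horizontal axis; control is ODN2006 CTL), with circles for Hs578T, squares for BT-20, open symbols for set 1 and filled ones for set 2 or the ODN arrays, and a dotted line at 5. In BT-20 the open squares lie above the filled ones for TIMP2 and both collagen chains and below them for TIMP1.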

How the data were processed

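Values of 12 HG-U133 Plus 2.0 arrays (biotin-labelled RNA) were taken as deposited: log2 values that the authors made with GCRMA in R 2.4, 1 for each of 54675 probe sets, with replicates not pooled. Whether the arrays were normalised together, and the build of the annotation used, are not given in the sources used here. Of these, 41097 probe sets had a single gene symbol, 41043 of them updated through RefSeq gene IDs. A few genes of the lists were not analysed here.

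Differences were computed with limma 3.58.1 in R 4.3.3, from a mean for each line and oligonucleotide and moderated by eBayes, for genes at 5 or above in at least 2 arrays of the comparison, with Benjamini-Hochberg adjustment over all genes tested and a threshold of 0.05. The estimates were tested on simulated data. All 9 genes were named, and up to 4 tested genes of each further list with the smallest p for the lines. Some untested genes of the lists were named with their values as well. The genes, lists and tests were chosen with earlier results of these data known. Deviations of M and U arrays of the same set correlated at 0.599 (Hs578T) and 0.595 (BT-20), but at 0.0984 to 0.131 across lines, so set within line was tried as a block. The alternatives also covered the filter, scaling, values under 5 raised to 5, the probe set, the form of eBayes and each array left out. The number of arrays limits the precision, and p-values measure the spread between arrays and not between cell lines. Each gene had 1 spread, pooled over the arrays of both lines. For TIMP2 the SD of the M and U arrays was 0.14 in Hs578T and 0.67 in BT-20, but the SE of M against U was 0.47 in both. For MMP14 and PLAU, BT-20 arrays near background (SD 0.19 and 0.10) were pooled with Hs578T arrays (SD 0.72 and 0.48).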

Additional observations from a re-analysis of the deposited data

How the results depend on the processing

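Between the lines, TIMP1 (log2 difference of 1.01 to 1.73), PLAU (5.96 to 9.01) and MMP2 kept their call under every alternative run, MMP2 at 2.91 when its 3 probe sets were averaged. So did TIMP3, at 8.03 or above. MMP2, MMP14, TIMP3 and PLAU passed the filter only through Hs578T and had to differ. Their kept calls therefore add nothing to their levels. TIMP2 ranged from 1.20 to 2.13 but was not called on 1 of its other probe sets (0.15, adjusted p = 0.695). MMP14 (1.26 to 4.58) was not tested with its probe sets averaged, where it did not pass the filter. PLAUR was called in 9 of 16 settings. Centring on 14 housekeeping genes moved the median of all genes between the lines from −0.09 to −0.61 and the higher and lower calls from 3580 and 4189 to 2258 and 6114. With no filter, 1 of the genes, MMP2, passed for the ODNs against M and U in Hs578T (adjusted p = 0.0328). The number of all genes called there, 937, became 1444 with the trended robust fit and ranged from 135 to 1528 with single arrays left out; for ODN2006 against its control, the 1 gene became 150 with no filter and 0 with the trended robust fit or with the ODN arrays alone. With the replicate block, 7 of the 9 genes were called between the lines, beside 8135 of all 10410 genes tested. In each M against U comparison 0 of the 9 were called, and 0 of all genes. For ODN2006 against its control 0 of the 9 were called, beside 1 of all 10543, so no call of the 9 genes changed. No block could be fitted for the ODNs against M and U, which share no set number. In the other comparisons and settings of the treatments, none of the 9 genes was called.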
